A study of Homo sapiens with 4 samples.

Results

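The comparison described here sets MCF10A cells given Ovol2 directly against MCF10A cells given Snail. It uses 2 of the 4 libraries of the series, 1 per group, so no difference below has a replicate check and none carries a p-value. A gene was kept where it reached 1 FPKM (fragments per kilobase of transcript, scaled to the mapped fragments of the library) in either library, which held for 11843 of 25317 gene symbols. Its ratio is the log2 of (FPKM + 1) in Ovol2 cells over (FPKM + 1) in Snail cells, so a positive value means higher in Ovol2 cells.

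MCF10A is an immortal, non-tumorigenic line of human mammary epithelial cells with basal features. The groups of the series were Ovol2, Snail, Zeb1 and an empty vector control, EV. Each factor was delivered by a lentivirus built on pHIV-ZsGreen, whose green fluorescent protein allowed infected cells to be sorted, and RNA was taken from the fluorescent cells 6 days after delivery. All 4 groups share the cell line, the vector backbone, the sort and the medium with serum, epidermal growth factor, cholera toxin and insulin. The promoter that drives the factors, the species of their coding sequences and the number of separate infections are not given in the sources used here, and each library is a sorted pool rather than a clone.

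Snail, encoded by SNAI1, is a zinc finger repressor that binds E-box sequences in the promoters of epithelial genes and drives the epithelial-to-mesenchymal transition, in which cells lose junctions and polarity and make fibroblast-like matrix. OVOL2 is a zinc finger factor of surface epithelia that represses mesenchymal regulators such as ZEB1 and keeps keratinocytes and mammary cells epithelial. The 2 factors thus sit on opposite sides of the same transition, and the comparison asks how far the cells driven each way stand apart. EV and Zeb1 levels are given beside those of Ovol2 and Snail cells where they help to place a gene. The Ovol2 and Snail libraries share that 1 EV library as their control.

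The proximal promoters of 6 genes are shown because they carry, or lack, the E-box CAGGTG or CACCTG, the same site read on either strand, that Snail binds, and the site CCGTTA or TAACGG, again the same on either strand, bound by OVOL factors. They were chosen after their values were seen: CRB3 from the polarity genes, SPRR1A, SPRR1B and SPRR3 from the squamous genes higher in Ovol2 cells, and FN1 and VIM from the mesenchymal genes higher in Snail cells. Each run is the 250 bases before the RefSeq gene start on the strand of the gene, 5′ to 3′, with matches to either motif in capitals.
CRB3 (GRCh38.p14, chr19:6464021-6464270, plus strand): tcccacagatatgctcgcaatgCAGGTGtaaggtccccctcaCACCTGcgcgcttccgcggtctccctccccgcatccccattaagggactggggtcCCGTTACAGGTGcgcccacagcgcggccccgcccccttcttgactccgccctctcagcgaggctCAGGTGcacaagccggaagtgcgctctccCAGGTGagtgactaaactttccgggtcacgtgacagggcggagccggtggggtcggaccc
SPRR1A (GRCh38.p14, chr1:152983831-152984080, plus strand): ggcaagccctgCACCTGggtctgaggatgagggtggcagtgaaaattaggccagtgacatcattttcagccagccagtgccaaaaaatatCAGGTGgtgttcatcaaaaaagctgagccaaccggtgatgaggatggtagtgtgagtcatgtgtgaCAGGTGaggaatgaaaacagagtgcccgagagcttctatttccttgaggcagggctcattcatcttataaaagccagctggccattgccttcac
SPRR1B (GRCh38.p14, chr1:153030953-153031202, plus strand): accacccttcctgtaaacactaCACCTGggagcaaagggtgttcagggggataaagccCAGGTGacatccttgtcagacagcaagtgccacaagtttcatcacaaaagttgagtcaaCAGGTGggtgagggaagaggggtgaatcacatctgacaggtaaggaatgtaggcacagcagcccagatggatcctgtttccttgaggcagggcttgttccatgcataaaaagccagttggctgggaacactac
SPRR3 (GRCh38.p14, chr1:153001499-153001748, plus strand): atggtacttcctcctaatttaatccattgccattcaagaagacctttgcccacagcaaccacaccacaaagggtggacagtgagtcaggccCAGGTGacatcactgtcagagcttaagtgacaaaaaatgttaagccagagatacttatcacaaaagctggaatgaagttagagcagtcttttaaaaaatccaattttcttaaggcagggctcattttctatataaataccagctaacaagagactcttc
FN1 (GRCh38.p14, chr2:215436069-215436318, minus strand): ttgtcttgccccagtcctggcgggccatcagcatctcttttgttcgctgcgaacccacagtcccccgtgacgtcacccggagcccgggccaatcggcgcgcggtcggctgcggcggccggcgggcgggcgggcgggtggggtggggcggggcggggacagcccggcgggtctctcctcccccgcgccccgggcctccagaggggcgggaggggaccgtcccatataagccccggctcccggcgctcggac
VIM (GRCh38.p14, chr10:17227991-17228240, plus strand): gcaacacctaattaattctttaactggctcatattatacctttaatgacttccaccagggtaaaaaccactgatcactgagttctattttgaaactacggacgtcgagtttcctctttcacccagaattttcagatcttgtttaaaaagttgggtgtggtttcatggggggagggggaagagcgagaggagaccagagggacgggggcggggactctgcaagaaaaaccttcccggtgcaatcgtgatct

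The delivered factors matched the labels. OVOL2 stood at 78.3 FPKM in Ovol2 cells, against 5.26 in Snail cells, 0.563 in Zeb1 cells and 6.32 in EV cells. SNAI1 stood at 0.725 FPKM in Ovol2 cells, against 99.7 in Snail cells, 0.436 in Zeb1 cells and 0.152 in EV cells. ZEB1 itself was low in both, at 0.0380 FPKM in Ovol2 cells and 0.536 in Snail cells, under the level at which a gene was kept. Each value counts transcripts read as the human gene, whether delivered or the cells' own. The spacing of the lowest FPKM values put the depth at about 24100000 fragments for Ovol2 cells and 31600000 for Snail cells. At that depth 1 FPKM of a transcript of median length stood for about 63.7 fragments in Ovol2 cells and 83.5 in Snail cells. RMRP and RPPH1 are 2 small nuclease RNAs. They took 40.6% of all FPKM in the Ovol2 library, 18.7% in the Snail library and 24.6% in the EV library. Those are shares of summed FPKM and not of fragments. The sum itself was not fixed, at 555645 FPKM in the Ovol2 library and 357476 in the Snail library. Rescaling to equal sums without these 2 RNAs shifted Ovol2 over Snail by a log2 of -0.18 before the pseudocount.

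Over all kept genes, more stood lower than higher in Ovol2 cells, while the largest differences were on the higher side. A 2-fold difference or more, a log2 ratio of at least 1 either way, was reached by 41.2% of kept genes: 1046 were higher in Ovol2 cells than in Snail cells (8.83%) and 3833 were lower (32.4%). The median ratio was -0.62 and the quartiles were -1.18 and 0.09. At 16-fold the balance was the other way, with 78 genes higher and 25 lower. The threshold fell between CXXC4, at 1.17 FPKM in Ovol2 cells and 0.0837 in Snail cells, and SHF, at 1.61 and 0.304, on the higher side. On the lower side it fell between THAP1, at 2.88 FPKM in Ovol2 cells and 6.75 in Snail cells, and ARNTL, at 5.38 and 11.8. Which side holds more genes depended on the scaling. With each library scaled to its upper quartile, 2439 of 11699 kept genes were higher and 1365 lower in Ovol2 cells. Thus 64.1% of the genes past 2-fold were higher instead of 21.4%. Such scaling shifted Ovol2 over Snail by a log2 of 0.85 before the pseudocount was added, so genes at low levels moved less. The median over all kept genes became 0.088. The same scaling turned the median from negative to positive in the lists of transition factors, desmosomes, basal markers, WNT genes, p53 targets, glycolysis and interferon-stimulated genes described further on, and its counts are given for each list in which it changed which side held more genes. The counts of each gene list below are therefore read against 8.83% higher and 32.4% lower, and its median against -0.62. Counts after upper-quartile scaling are read against the 2439 higher and 1365 lower of 11699 genes under that scaling.

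**Figure D1:**
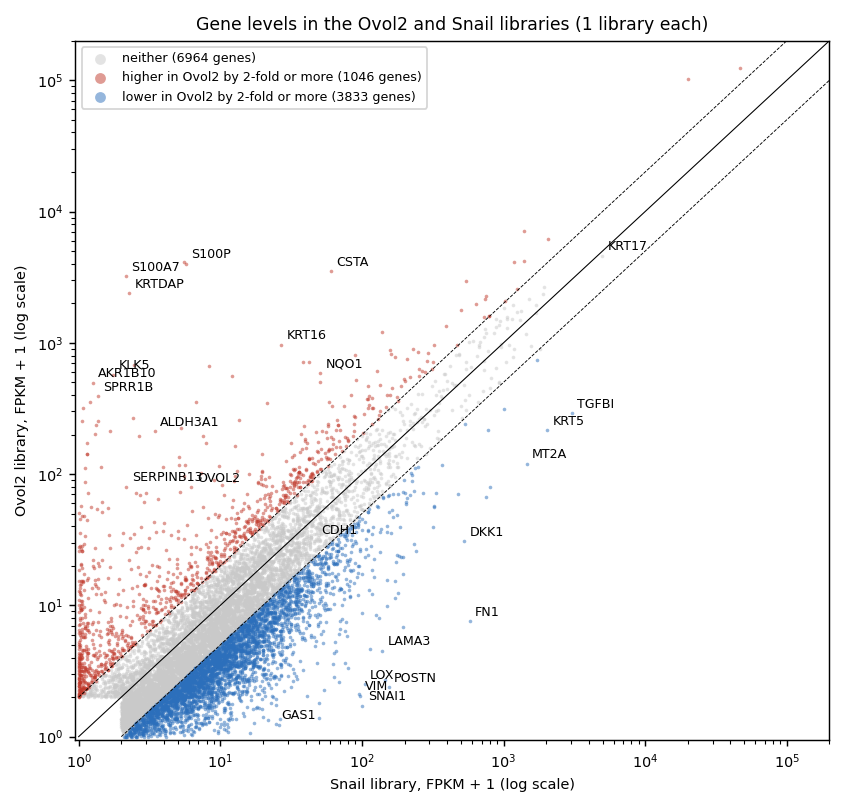
Level of each of the 11843 kept genes in Ovol2 cells (vertical) against Snail cells (horizontal), FPKM + 1 on log axes, with the line of equality solid and the 2-fold lines dashed; each point is 1 gene in 1 library per group. The cloud of genes lower in Ovol2 cells is dense and close to its line, while S100A7, KRTDAP, S100P and KLK5 lie far above the other line and FN1, POSTN and VIM far below theirs.

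The ratio also followed transcript length, and that touches most of what follows. In the tenth of genes with the shortest transcripts (median 609.5 bases) the median ratio was 0.38, and 28.9% were higher in Ovol2 cells against 11.7% lower. In the tenth with the longest (median 7773 bases) it was -1.31, with 1.51% higher and 67.5% lower. Across 11239 genes with a length, the Spearman correlation of ratio with length was -0.51, given as a description, since all genes come from the same pair of libraries. Squamous genes are mostly short and matrix genes mostly long, so the median of each list is also given with length removed, that is, with the median of a gene's length class replaced by the median of all genes. With length removed, 623 of the 11239 genes were higher in Ovol2 cells and 3411 lower, and list counts so corrected are read against these. RNA quality was not measured in these files, and its part in the trend was not tested.

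**Figure D2:**
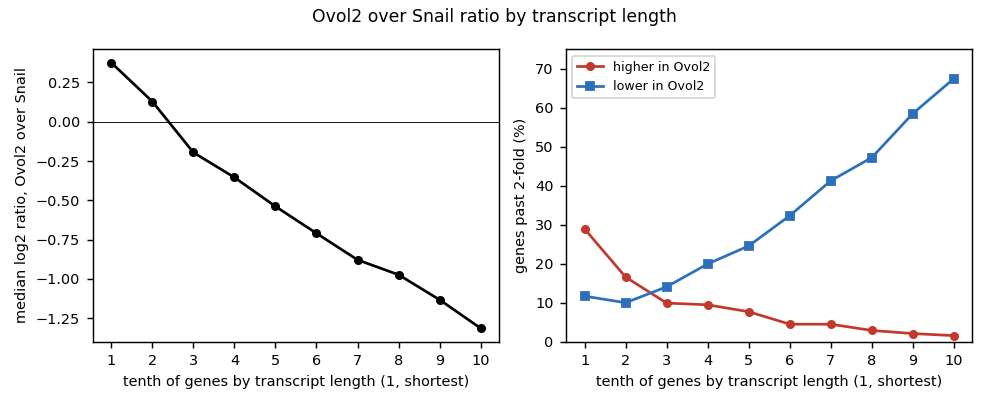
Median log2 ratio of Ovol2 over Snail (left) and percent of genes past 2-fold (right; circles higher in Ovol2, squares lower) in 10 classes of transcript length, shortest first. The median goes down at each step across the 10 classes, between 0.38 in the shortest and -1.31 in the longest.

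The 5 genes given as markers of this comparison were far apart, and EV cells lay between the other two groups for each of them. POSTN, which encodes the matrix protein periostin, stood at 1.39 FPKM in Ovol2 cells, 154 in Snail cells and 14.9 in EV cells (log2 ratio -6.02). GAS1, a membrane protein induced at growth arrest, stood at 0.238 FPKM in Ovol2 cells, 23.6 in Snail cells and 5.05 in EV cells (-4.31). On the other side, SERPINB13, a protease inhibitor of differentiating keratinocytes, stood at 79.3 FPKM in Ovol2 cells, 1.17 in Snail cells and 12.5 in EV cells (5.21). SPRR1B, a small proline-rich precursor of the cornified envelope, stood at 391 FPKM in Ovol2 cells, 0.373 in Snail cells and 5.66 in EV cells (8.16). ALDH3A1, a detoxifying aldehyde dehydrogenase of surface epithelia, stood at 212 FPKM in Ovol2 cells, 2.45 in Snail cells and 13.5 in EV cells (5.95). So these 5 differences were made up of a level above EV in one of the libraries and below EV in the other. The counting error of such ratios is small beside their size: the plain FPKM ratio of Snail over Ovol2 cells was 111 for POSTN, with a 95% counting interval of 91.7 to 135. Such intervals cover counting error at the estimated depth and leave out the spread between cultures.

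**Figure D3:**
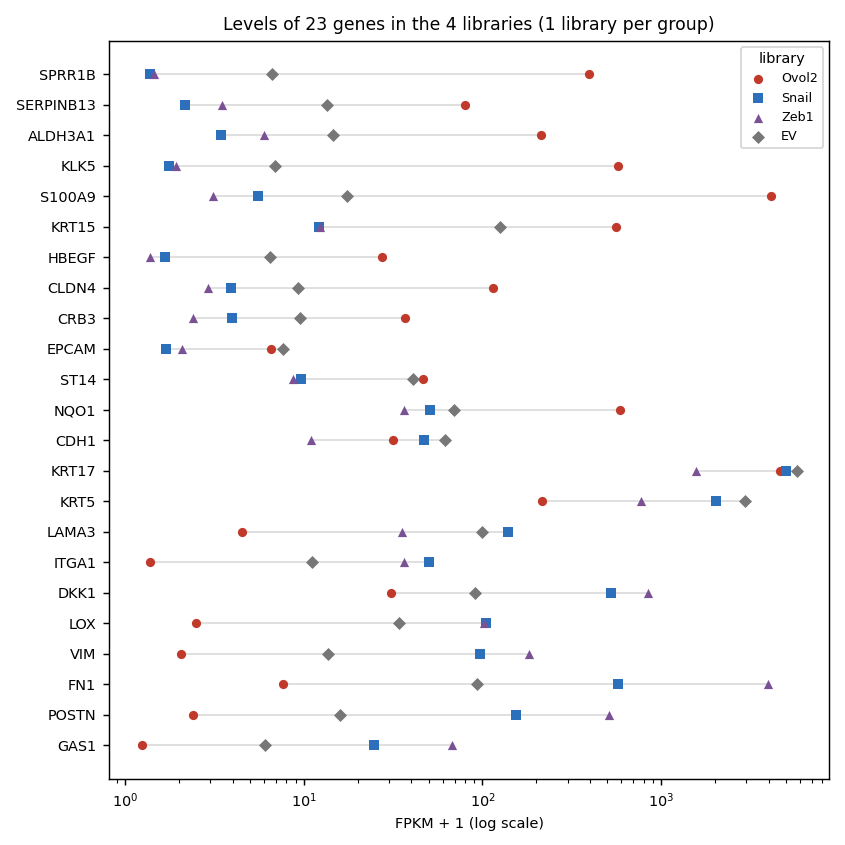
Levels of 23 genes in the 4 libraries, FPKM + 1 on a log axis (circle Ovol2, square Snail, triangle Zeb1, diamond EV; 1 library per point, genes chosen after their values were seen). Squamous and junction genes at the top run highest in Ovol2 cells, apart from EPCAM, which was highest in EV cells (6.61 FPKM against 5.51). The matrix genes at the bottom run lowest in Ovol2 cells, while CDH1 and KRT17 lie close together in Ovol2 and Snail cells.

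The genes highest in Ovol2 cells relative to Snail cells were mostly those of stratified epithelium, some of cornifying and some of wet linings. Of the 15 with the largest ratios at 5 FPKM or more in either library, 13 were calcium-binding S100 genes, keratins and keratinocyte differentiation proteins, small proline-rich proteins, kallikreins and epithelial protease inhibitors. The other two were the detoxifying enzymes AKR1B10 and GPX2. S100A7, which encodes the antimicrobial protein psoriasin, had the largest ratio, at 3214 FPKM in Ovol2 cells and 1.15 in Snail cells (10.54). KRTDAP, a secreted keratinocyte differentiation protein, followed at 2391 FPKM in Ovol2 cells and 1.27 in Snail cells (10.04). These levels place S100A7 and KRTDAP among the abundant transcripts of Ovol2 cells and near the limit of the kept genes in Snail cells.

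Early squamous keratins and cornified envelope proteins, which form the scaffold of the suprabasal layers, were higher in Ovol2 cells almost throughout. Of 24 kept, 21 were higher in Ovol2 cells and none lower, with a median of 3.69 (3.70 with length removed). Of these, 10 were kept through Ovol2 cells alone and had to differ, so the 14 that reached 1 FPKM in both libraries are the fairer count: 11 were higher, with a median of 3.36. KRT4, a keratin of wet stratified epithelia, stood at 679 FPKM in Ovol2 cells, 1.44 in Snail cells and 4.18 in EV cells (8.12). CST6, an inhibitor of lysosomal cysteine proteases in the epidermis, stood at 269 FPKM in Ovol2 cells, 1.42 in Snail cells and 4.72 in EV cells (6.80). KRT13, the partner of KRT4, stood at 193 FPKM in Ovol2 cells, 1.68 in Snail cells and 4.80 in EV cells (6.18). All 3 were also lower in Snail cells than in EV cells. CALML5, a calcium sensor of the granular layer, stood at 141 FPKM in Ovol2 cells, 0.144 in Snail cells and 0.0392 in EV cells (6.95). SBSN, a secreted suprabasal protein, stood at 110 FPKM in Ovol2 cells, 0.116 in Snail cells and 0.0718 in EV cells (6.64). KRT1, the epidermal keratin of the spinous layer, stood at 11.7 FPKM in Ovol2 cells, 0.0193 in Snail cells and 0.0148 in EV cells (3.64). For CALML5, SBSN and KRT1, the Snail and EV libraries were both near 0, so the difference lay on the Ovol2 side. Its partner KRT10 was present in both, at 105 FPKM in Ovol2 cells and 18.7 in Snail cells (2.42). CSTA, the envelope protein cystatin A, had the largest ratio among genes at 20 FPKM or more in both libraries, at 3494 FPKM in Ovol2 cells and 59.5 in Snail cells (5.85). The plakin EVPL, the corneodesmosome protein CDSN and the plakin PPL did not reach 2-fold. PPL stood at 22.8 FPKM in Ovol2 cells and 44.3 in Snail cells (-0.93).

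Of 11 small proline-rich genes, 7 were kept, all through Ovol2 cells alone, and all 7 were higher there (median 3.13), a count that the filter on low values favours. With length removed 5 of the 7 were higher, with a median of 2.04. SPRR1A stood at 317 FPKM in Ovol2 cells, 0.0725 in Snail cells and 0.0794 in EV cells. The Snail value is worth an estimated 0.6 fragments, and the plain ratio of 4373 has a counting interval of 485 to 106842. SPRR3, found in oral and oesophageal linings, stood at 254 FPKM in Ovol2 cells and 0.0642 in Snail cells, worth 1.9 fragments, and was listed at 0 in EV cells. Of 18 late cornified envelope genes, 9 were kept, again through Ovol2 cells alone. LCE3D was the most abundant of them, at 17.5 FPKM in Ovol2 cells and 0.00934 in Snail cells, and the summed level of the list was 40.0 FPKM in Ovol2 cells, 0.353 in Snail cells and 0.275 in EV cells. All 9 were higher, with a median of 1.58, but with length removed 3 were higher and the median was 0.70, so the size of their difference depends on that correction. The SPRR2 and LCE genes are near-identical copies between which reads can be shared, so their single values are uncertain.

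S100 genes encode calcium-binding proteins of which several are secreted by stressed keratinocytes. Of 15 kept, 11 were higher in Ovol2 cells and none lower, with a median of 1.96 (1.49 with length removed), and 8 of the 12 at 1 FPKM or more in both libraries were higher. S100A9, a chain of the antimicrobial calprotectin, stood at 4144 FPKM in Ovol2 cells, 4.52 in Snail cells and 16.5 in EV cells (9.55). Its partner S100A8 stood at 213 FPKM in Ovol2 cells, 0.670 in Snail cells and 4.53 in EV cells (7.0). S100P stood at 4002 FPKM in Ovol2 cells, 4.71 in Snail cells and 8.39 in EV cells (9.45). All 3 were lower in Snail cells than in EV cells. S100A4, often used as a fibroblast marker, was higher in Ovol2 than in Snail cells, at 505 FPKM against 49.4 (3.33). It was also above EV in Zeb1 cells, at 331 FPKM against 34.0. S100A7 and S100A7A are close copies, so the split between them is uncertain. S100A10 and S100A11 had ratios of -0.17 and 0.30.

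Kallikrein-related peptidases, secreted serine proteases that cut the junctions of shedding keratinocytes, were kept through Ovol2 cells alone in all 9 cases, and all 9 were higher there (median 5.48, 5.09 with length removed), again as the filter favours. KLK5 stood at 571 FPKM in Ovol2 cells, 0.749 in Snail cells and 5.89 in EV cells (8.35). KLK7 stood at 351 FPKM in Ovol2 cells, 0.195 in Snail cells and 0.844 in EV cells (8.20). Their inhibitor SPINK5 was higher as well, at 8.75 FPKM in Ovol2 cells and 0.0930 in Snail cells (3.16). ST14, the membrane protease matriptase, which stands upstream of kallikreins in the epidermis, stood at 45.7 FPKM in Ovol2 cells, 8.65 in Snail cells and 39.7 in EV cells (2.28). Unlike the kallikreins, ST14 was close to its EV level in Ovol2 cells and lower in Snail cells.

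Clade B serpins are intracellular protease inhibitors, and 6 of 9 kept were higher in Ovol2 cells with none lower (median 3.04, 2.76 with length removed). Of these, 4 were kept through Ovol2 cells alone, and of the 5 present in both libraries 2 were higher, with a median of 0.55. Besides SERPINB13, they were led by SERPINB3, at 234 FPKM in Ovol2 cells and 0.319 in Snail cells (7.47). Its near-identical copy SERPINB4 stood at 27.4 FPKM in Ovol2 cells and 0.0268 in Snail cells (4.79). SERPINB5, the mammary inhibitor maspin, had a ratio of 0.29, with 290 FPKM in Ovol2 cells and 237 in Snail cells. Of 19 kept enzymes and carriers of the epidermal lipid barrier, 14 were higher and none lower (median 1.63, 1.62 with length removed). Of the 10 present in both libraries 5 were higher, with a median of 0.77. CERS3, which makes the long ceramides of skin, stood at 11 FPKM in Ovol2 cells and 0.0403 in Snail cells (3.52). ABCA12, the lipid carrier of lamellar bodies, stood at 13.2 FPKM in Ovol2 cells and 1.91 in Snail cells (2.29). The ceramide and sphingolipid enzymes ASAH1, SPTLC3 and UGCG had ratios between -0.34 and 0.26.

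Some genes higher in Ovol2 cells lay beside each other on the chromosomes. In the RefSeq gene order, in which 11693 kept genes could be placed, the next kept neighbour of a gene higher in Ovol2 cells was also higher in 19.7% of cases, against 8.77% of all placed genes. For genes lower in Ovol2 cells the same share was 39.2%, against 32.6%. Both shares include genes kept through a single library, for which the filter favours a difference. They were not taken over genes present in both libraries alone. The longest run of genes higher in Ovol2 cells held 33 genes on chromosome 1, in the epidermal differentiation complex, where involucrin, the small proline-rich, late envelope and S100 genes sit together. Its median ratio was 2.62 and its range 1.01 to 10.54. Of the 33, 28 were kept through Ovol2 cells alone, and IVL, S100A9, S100A7, S100A6 and S100A4 reached 1 FPKM in Snail cells too. Another 21 genes of the tables in that stretch did not reach 1 FPKM in either library. The next longest was the row of 8 kallikreins on chromosome 19, all kept through Ovol2 cells alone, and 11 runs held 4 genes or more. Runs of 4 or more genes lower in Ovol2 cells were commoner, at 124, but none was longer than 8 genes.

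**Figure D4:**
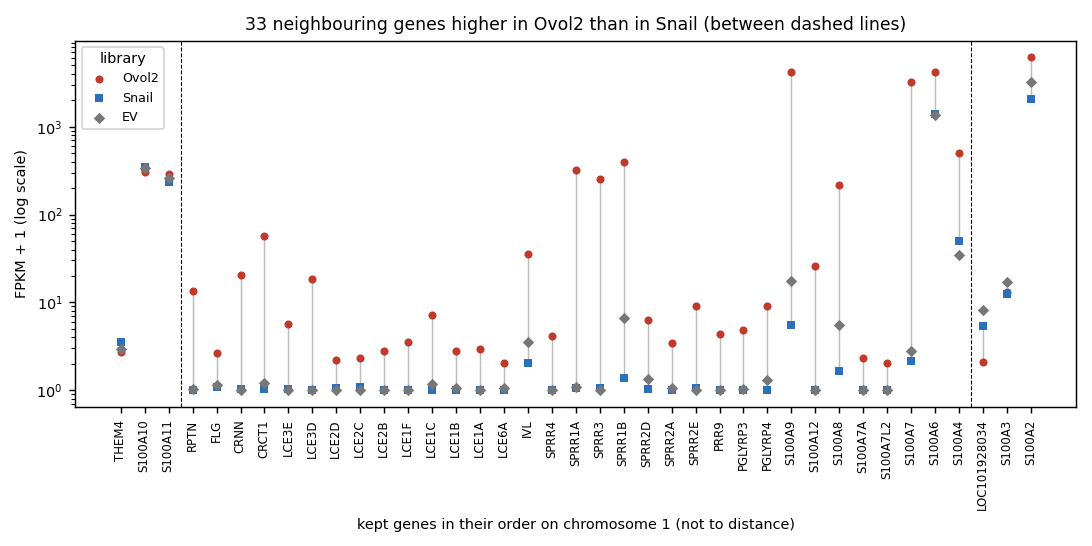
Levels (FPKM + 1, log axis) in Ovol2, Snail and EV cells of the 33 neighbouring kept genes on chromosome 1 that were higher in Ovol2 cells, with 3 kept genes on either side; genes are in their order along the chromosome and evenly spaced. Inside the dashed lines each circle for Ovol2 stands above its square for Snail, and most squares lie at the bottom of the axis. Outside the lines S100A10, S100A11 and S100A3 lie close together. S100A2, also outside, was higher in Ovol2 cells (log2 ratio 1.59), and LOC101928034 was lower (-1.36).

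Aldo-keto reductases and other targets of NRF2, the regulator of the defence against oxidants and electrophiles, were mostly higher in Ovol2 cells. All 26 were kept, 22 of them were higher and none lower, with a median of 1.83 (1.82 with length removed). Of the 22 at 1 FPKM or more in both libraries, 18 were higher. AKR1B10, which reduces retinal and other aldehydes, stood at 497 FPKM in Ovol2 cells, 0.259 in Snail cells and 0.848 in EV cells (8.63). NQO1, the quinone reductase used as a standard NRF2 readout, stood at 588 FPKM in Ovol2 cells, 49.7 in Snail cells and 68.2 in EV cells (3.54). GPX2, a glutathione peroxidase of epithelia, stood at 201 FPKM in Ovol2 cells, 0.296 in Snail cells and 0.711 in EV cells (7.29). HMOX1, which breaks down haem, stood at 31.8 FPKM in Ovol2 cells, 2.16 in Snail cells and 3.29 in EV cells (3.38). The list reached into the pentose phosphate pathway, where PGD stood at 200 FPKM in Ovol2 cells and 36.3 in Snail cells (2.43). The exceptions among the best-known targets were TXNRD1, at 48.2 FPKM in Ovol2 cells and 82.2 in Snail cells (-0.76), and GSR, at 10.8 and 12.2 (-0.16). AKR1C1, AKR1C2 and AKR1C3, and AKR1B10 with AKR1B15, are close copies, so the split between them is uncertain.

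Aldehyde dehydrogenases and genes of retinoid handling moved both ways: of 18 kept, 8 were higher in Ovol2 cells and 5 lower, with a median of 0.46 (0.62 with length removed). Of the 14 present in both libraries 4 were higher and 5 lower, and upper-quartile scaling gave 10 of 18 higher and 2 lower. ALDH1A1, which makes retinoic acid, stood at 46.7 FPKM in Ovol2 cells and 0.0836 in Snail cells (5.46). CRABP2, which carries retinoic acid to the nucleus, stood at 195 FPKM in Ovol2 cells and 6.54 in Snail cells (4.70). The mitochondrial ALDH1B1 was lower, at 4.29 FPKM in Ovol2 cells and 23.1 in Snail cells (-2.19). Antimicrobial genes were split too, with 8 of 13 kept higher and 3 lower (median 2.28, 1.42 with length removed). Of the 13, 7 were kept through Ovol2 cells alone, and of the 6 present in both libraries 2 were higher and 3 lower, with a median of -1.09. PI3, the elastase inhibitor elafin, stood at 253 FPKM in Ovol2 cells and 0.371 in Snail cells (7.53), whereas complement C3 stood at 11.6 and 73.8 (-2.57). Among luminal secretory genes, 8 of 14 kept were higher and 2 lower (median 1.06, 1.10 with length removed), but 7 of the 14 were kept through Ovol2 cells alone. Of the 5 present in both libraries 1 was higher and 1 lower, with a median of -0.83. PSCA, a surface protein of secretory and stratified epithelia, stood at 356 FPKM in Ovol2 cells and 5.79 in Snail cells (5.72), while MUC1 stood at 0.353 and 3.76 (-1.82).

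Epithelial junction and polarity genes were higher in Ovol2 cells in part. Of 25 kept adhesion and tight junction genes, 10 were higher and 2 lower (median 0.33, and 0.50 with length removed). Of these, 8 were kept through Ovol2 cells alone, and of the 16 present in both libraries 4 were higher and 1 lower, with a median of -0.28. E-cadherin, CDH1, did not reach 2-fold and was lower than EV in both, at 30.8 FPKM in Ovol2 cells, 46.0 in Snail cells, 9.99 in Zeb1 cells and 60.4 in EV cells (-0.57). EPCAM, an epithelial adhesion protein, stood at 5.51 FPKM in Ovol2 cells, 0.683 in Snail cells and 6.61 in EV cells (1.95). CLDN4, a sealing claudin, stood at 113 FPKM in Ovol2 cells, 2.93 in Snail cells and 8.31 in EV cells (4.86). GJB2, a connexin of gap junctions in activated keratinocytes, stood at 60.3 FPKM in Ovol2 cells, 0.472 in Snail cells and 1.85 in EV cells (5.38). TJP1, the scaffold ZO-1, was lower, at 2.29 FPKM in Ovol2 cells and 13.4 in Snail cells (-2.13).

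Of 28 kept genes of polarity, apical trafficking and epithelial splicing, 13 were higher in Ovol2 cells and 3 lower, with a median of 0.97 (0.94 with length removed), and of the 21 present in both libraries 7 were higher and 3 lower (median 0.62). CRB3, the apical polarity protein whose promoter is printed above, stood at 36.0 FPKM in Ovol2 cells, 2.97 in Snail cells and 8.57 in EV cells (3.22). RAB25, a recycling GTPase of epithelia, stood at 86.9 FPKM in Ovol2 cells, 11.5 in Snail cells and 28.8 in EV cells (2.81). LLGL2, a basolateral polarity protein, stood at 16.2 FPKM in Ovol2 cells, 3.64 in Snail cells and 8.83 in EV cells (1.89). CRB3, RAB25 and LLGL2 were thus above EV in Ovol2 cells and below it in Snail cells. The 3 lower in Ovol2 cells were PARD3 (-1.23), CDS1 (-1.14) and INADL (-1.01). With length removed, 11 of the 27 genes with a length were higher and none lower. ESRP1, which directs epithelial splicing, stood at 21.6 FPKM in Ovol2 cells, 13.8 in Snail cells and 22.4 in EV cells (0.62).

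Promoter sequences were compared for the 9306 kept genes (78.6%) with a RefSeq promoter of 250 bases before to 50 after the gene start, on both strands. The E-box CAGGTG or CACCTG was present in 30.9% of 737 promoters of genes higher in Ovol2 cells, 15.5% of 3109 promoters of genes lower there, 18.3% of all kept genes and 20.6% of all 35116 promoters of that length. Among genes with a ratio of 4 or more it was present in 25 of 53 promoters (47.2%). With the 33-gene run left out the share among higher genes was 29.6%. Among transcripts shorter than the median the share was 30.3% of higher and 17.8% of lower genes. Among longer transcripts it was 36.2% of higher and 14.6% of lower genes. By list, the E-box was present in 12 of 18 promoters of polarity genes (66.7%), where CRB3 held 5, in 5 of 14 of early squamous genes (35.7%) and in 3 of 13 of adhesion genes (23.1%). Among lists lower in Ovol2 cells it was present in 3 of 6 promoters of hemidesmosome genes (50%), 2 of 13 of mesenchymal markers (15.4%) and 2 of 16 of collagen genes (12.5%), so the share did not follow the direction of the lists throughout. The site CCGTTA or TAACGG was rarer: 2.44% of promoters of genes higher in Ovol2 cells held it, 4.86% of those lower there, 4.08% of all kept genes and 3.07% of all promoters. These are counts of letters in a window. Binding was not measured, and FN1 and VIM, which hold neither motif in the bases printed, were among the genes furthest apart.

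Transcription factors of the 2 transitions were split. Of 20 kept, 6 were higher in Ovol2 cells and 7 lower, counting the delivered OVOL2 and SNAI1 (median -0.53, -0.40 with length removed), and 6 were higher and 4 lower after upper-quartile scaling. Of the 14 present in both libraries, 4 were higher and 3 lower. ELF3, an epithelial ETS factor, stood at 63.8 FPKM in Ovol2 cells, 2.61 in Snail cells and 11.4 in EV cells (4.17). GRHL1, a grainyhead-like factor of differentiating keratinocytes, stood at 14.5 FPKM in Ovol2 cells, 0.311 in Snail cells and 0.689 in EV cells (3.56). GRHL3, which drives barrier formation, stood at 6.21 FPKM in Ovol2 cells, 0.241 in Snail cells and 0.567 in EV cells (2.54). GRHL2, the grainyhead-like factor of simple epithelia, stood at 8.92 FPKM in Ovol2 cells, 12.4 in Snail cells and 14.5 in EV cells (-0.44). On the mesenchymal side, TWIST1 stood at 0.609 FPKM in Ovol2 cells, 7.72 in Snail cells and 5.45 in EV cells (-2.44). ZEB2 stood at 0.0228 FPKM in Ovol2 cells, 1.90 in Snail cells and 0.523 in EV cells (-1.50). SNAI2, or Slug, stood at 22.6 FPKM in Ovol2 cells, 47.0 in Snail cells and 40.9 in EV cells (-1.02), just past 2-fold.

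The structures that anchor basal cells were lower in Ovol2 cells. Hemidesmosomes, laminin of the basement membrane and anchoring fibrils, which tie basal cells to matrix, gave 9 of 10 genes lower in Ovol2 cells and none higher, all 10 being present in both libraries. Their median was -2.70 (-2.03 with length removed). LAMA3, the alpha chain of that laminin, stood at 3.53 FPKM in Ovol2 cells, 137 in Snail cells and 98.5 in EV cells (-4.93). COL7A1, the anchoring fibril collagen, stood at 1.83 FPKM in Ovol2 cells, 62.4 in Snail cells and 50.7 in EV cells (-4.48). COL17A1, which spans the hemidesmosome membrane, stood at 22.5 FPKM in Ovol2 cells, 188 in Snail cells and 192 in EV cells (-3.01). ITGB4, the hemidesmosome integrin, stood at 17.5 FPKM in Ovol2 cells, 116 in Snail cells and 134 in EV cells (-2.66). For LAMA3, COL7A1, COL17A1 and ITGB4 the Snail and EV libraries were nearer to each other than either was to the Ovol2 library.

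Keratins and other markers of the basal layer did not move as a block: of 18 kept, 5 were higher in Ovol2 cells and 8 lower (median -0.48, -0.67 with length removed), and 6 were higher and 4 lower after upper-quartile scaling. KRT5 was lower, at 215 FPKM in Ovol2 cells, 2022 in Snail cells and 2929 in EV cells (-3.23). Its partner KRT14 stood at 58.5 FPKM in Ovol2 cells, 204 in Snail cells and 195 in EV cells (-1.78). KRT15 was higher, at 560 FPKM in Ovol2 cells, 11.1 in Snail cells and 125 in EV cells (5.53). KRT16, a keratin of wounded and hyperproliferative epidermis, stood at 965 FPKM in Ovol2 cells, 26.1 in Snail cells and 41.4 in EV cells (5.16). KRT17 stood at 4624 FPKM in Ovol2 cells, 4972 in Snail cells and 5736 in EV cells (-0.10). KRT6A, which has the close copies KRT6B and KRT6C, stood at 474 FPKM in Ovol2 cells, 459 in Snail cells and 560 in EV cells (0.05). EGFR, the receptor for the growth factor in the medium, stood at 6.16 FPKM in Ovol2 cells, 47.9 in Snail cells and 55.6 in EV cells (-2.77). TP63, the regulator of basal identity, stood at 8.23 FPKM in Ovol2 cells, 15.7 in Snail cells and 23.9 in EV cells (-0.85). Desmosomes were divided too, with 3 of 10 kept genes higher and 5 lower (median -0.29). That balance turned round in both corrections, with 4 higher and 2 lower with length removed (median 0.06) and 5 higher and 2 lower after upper-quartile scaling. PERP, a p63 target of desmosomes, stood at 855 FPKM in Ovol2 cells and 246 in Snail cells (1.79). DSG2, the desmoglein of simple and basal epithelia, stood at 13.1 FPKM in Ovol2 cells and 79.7 in Snail cells (-2.52).

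Markers of the mesenchymal state gave the lowest median of all lists. Of 20 kept, 18 were lower in Ovol2 cells and 1, S100A4, higher, with a median of -3.14 (-3.07 with length removed). Of the 14 present in both libraries, 12 were lower. FN1, fibronectin, had the lowest ratio of all genes at 5 FPKM or more, at 6.60 FPKM in Ovol2 cells, 576 in Snail cells, 3982 in Zeb1 cells and 92.7 in EV cells (-6.25). VIM, the intermediate filament vimentin, stood at 1.05 FPKM in Ovol2 cells, 95.6 in Snail cells, 181 in Zeb1 cells and 12.6 in EV cells (-5.56). FSTL1, a secreted glycoprotein of fibroblasts, stood at 1.71 FPKM in Ovol2 cells, 146 in Snail cells, 226 in Zeb1 cells and 36.5 in EV cells (-5.76). For FN1, VIM and FSTL1, Snail cells lay above EV and Ovol2 cells below it. DCN, decorin, stood at 6.98 FPKM in Ovol2 cells, 131 in Snail cells and 11.1 in EV cells (-4.05), so most of its difference was the Snail side. CDH2, N-cadherin, was low throughout, at 0.110 FPKM in Ovol2 cells, 3.11 in Snail cells and 1.23 in EV cells (-1.89). AXL, a receptor tyrosine kinase of mesenchymal cells, stood at 1.91 FPKM in Ovol2 cells, 33.4 in Snail cells and 19.5 in EV cells (-3.56). Other fibroblast markers, such as SPARC, THY1, PDGFRA and PDGFRB, stayed under 0.1 FPKM in Ovol2 and Snail cells.

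The matrix followed. Of 21 kept collagens and collagen-modifying enzymes, 20 were lower in Ovol2 cells and none higher, with a median of -1.82 (-2.16 with length removed), and all 14 present in both libraries were lower. LOX, the enzyme that crosslinks collagen, stood at 1.51 FPKM in Ovol2 cells, 103 in Snail cells and 33.2 in EV cells (-5.38). COL4A1, a basement membrane collagen chain, stood at 1.61 FPKM in Ovol2 cells, 68.1 in Snail cells and 31.7 in EV cells (-4.72). PLOD2, which hydroxylates collagen lysines, stood at 7.50 FPKM in Ovol2 cells, 125 in Snail cells and 65.6 in EV cells (-3.88). The fibrillar chain COL1A1 was low in each, at 0.583 FPKM in Ovol2 cells, 2.83 in Snail cells and 3.49 in EV cells (-1.27). Matrix glycoproteins gave 17 of 21 lower and 1 higher (median -2.54, -2.16 with length removed), and 11 of the 12 present in both libraries were lower. TGFBI, an integrin-binding matrix protein induced by TGF-beta, stood at 290 FPKM in Ovol2 cells, 3038 in Snail cells and 1999 in EV cells (-3.38). The 1 higher was ECM1, a glycoprotein of skin, at 2.33 FPKM in Ovol2 cells and 0.185 in Snail cells (1.49). Proteoglycans gave 6 of 11 lower and 2 higher (median -1.14, -0.65 with length removed), where SDC1, the epithelial syndecan, stood at 376 FPKM in Ovol2 cells and 117 in Snail cells (1.68) and SDC3 at 1.10 and 14.3 (-2.86). After upper-quartile scaling 5 of 10 proteoglycans were lower and 3 higher, with a median of -0.38.

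The machinery that couples cells to matrix was lower in Ovol2 cells as well. Of 10 kept integrins outside the hemidesmosome, 8 were lower and none higher (median -2.07, -1.73 with length removed), and 7 of the 8 present in both libraries were lower. After upper-quartile scaling 5 of 11 integrins were lower and 1 higher, with a median of -0.64. ITGA1, a collagen receptor chain, stood at 0.381 FPKM in Ovol2 cells, 48.9 in Snail cells and 10.1 in EV cells (-5.18). ITGA5, the fibronectin receptor chain, stood at 2.57 FPKM in Ovol2 cells, 61.8 in Snail cells and 32.5 in EV cells (-4.14). ITGB1, the beta chain shared by most matrix receptors, stood at 38.3 FPKM in Ovol2 cells, 318 in Snail cells and 201 in EV cells (-3.02). Actomyosin genes gave 15 of 22 lower and none higher, all present in both libraries (median -1.93, -1.67 with length removed). TPM2, a tropomyosin, stood at 11.5 FPKM in Ovol2 cells and 178 in Snail cells (-3.84). MYH9, the heavy chain of non-muscle myosin, stood at 22.3 FPKM in Ovol2 cells and 194 in Snail cells (-3.06). The actins ACTB and ACTG1 had ratios of -0.99 and -0.72, and the myosin light chain MYL6 was at 727 FPKM in Ovol2 cells and 722 in Snail cells (0.01).

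YAP and TAZ are transcriptional coactivators that respond to tension and adhesion. Of 15 kept targets and partners, 12 were lower in Ovol2 cells and none higher (median -1.79, -1.68 with length removed). After upper-quartile scaling 7 of the 15 were lower and 1 higher, with a median of -0.98. CTGF, a matricellular growth factor, stood at 3.34 FPKM in Ovol2 cells, 62.5 in Snail cells and 33.1 in EV cells (-3.87). CYR61, its close relative, stood at 10.7 FPKM in Ovol2 cells, 81.1 in Snail cells and 48.9 in EV cells (-2.81). AXL is counted in this list and among the mesenchymal markers. The tissue factor gene F3 stood at 102 FPKM in Ovol2 cells and 57.4 in Snail cells (0.82). Genes of the TGF-beta pathway gave 12 of 20 lower and 2 higher (median -1.11, -1.0 with length removed), and 11 of the 18 present in both libraries were lower. After upper-quartile scaling 7 of 21 were lower and 2 higher, with a median of -0.43. TGFBR1, the type I receptor, stood at 1.06 FPKM in Ovol2 cells, 39.8 in Snail cells and 22.4 in EV cells (-4.31). PMEPA1, a feedback inhibitor induced by TGF-beta, stood at 5.61 FPKM in Ovol2 cells, 69.1 in Snail cells and 59.4 in EV cells (-3.41). ID1, an inhibitor of differentiation induced by BMP signals, was higher, at 179 FPKM in Ovol2 cells and 68.5 in Snail cells (1.38).

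Proteases and inhibitors of the matrix gave 10 of 15 lower in Ovol2 cells and 1 higher (median -1.30, -1.23 with length removed), but 4 lower and 4 higher after upper-quartile scaling. Of the 12 present in both libraries 7 were lower and 1 higher. ADAM9, a membrane sheddase, stood at 15.6 FPKM in Ovol2 cells and 122 in Snail cells (-2.89). PLAUR, the receptor of the activator urokinase, was the 1 higher, at 6.60 FPKM in Ovol2 cells and 2.30 in Snail cells (1.21). WNT genes gave 7 of 16 lower and 3 higher (median -0.59, -0.25 with length removed). The 3 higher were all kept through Ovol2 cells alone, and of the 11 present in both libraries 6 were lower and none higher. DKK1, a secreted WNT antagonist, had the lowest ratio among genes at 20 FPKM or more in both libraries, at 29.7 FPKM in Ovol2 cells, 526 in Snail cells, 845 in Zeb1 cells and 89.6 in EV cells (-4.10). WNT4, a ligand of the mammary epithelium, stood at 11.3 FPKM in Ovol2 cells, 0.435 in Snail cells and 2.45 in EV cells (3.09). IGF axis genes gave 4 of 7 lower and 1 higher (median -2.04, -1.34 with length removed), and 3 of the 4 present in both libraries were lower, with IGFBP3, which binds insulin-like growth factors, at 19.1 FPKM in Ovol2 cells, 92.9 in Snail cells and 18.2 in EV cells (-2.23).

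Genes of the EGF receptor family, its ligands and its feedback moved both ways. EGFR itself, lower in Ovol2 cells (-2.77), was counted with the basal markers above and not in this list. Of 20 kept, 6 were higher in Ovol2 cells and 3 lower (median 0.15, 0.16 with length removed), and 9 were higher and 2 lower after upper-quartile scaling. The 6 were the ligands HBEGF, BTC and EREG and the induced genes IER3, DUSP5 and PHLDA1, while the ligands AREG, TGFA and EPGN did not reach 2-fold, with ratios of 0.96, 0.92 and 0.47. HBEGF, a membrane-anchored ligand released by shedding, stood at 26.3 FPKM in Ovol2 cells, 0.678 in Snail cells and 5.47 in EV cells (4.02). BTC, betacellulin, stood at 3.32 FPKM in Ovol2 cells and 0.321 in Snail cells (1.71). DUSP6, a phosphatase induced by ERK activity, was lower, at 2.45 FPKM in Ovol2 cells and 12 in Snail cells (-1.91). Cytokine genes gave 5 of 16 higher and 6 lower, with a median of 0.43 that turned to -0.29 with length removed, and 8 were higher and 4 lower after upper-quartile scaling. All 5 higher were kept through Ovol2 cells alone, and of the 9 present in both libraries none was higher and 4 were lower (median -0.80). IL1RN, the antagonist of interleukin-1, stood at 53.9 FPKM in Ovol2 cells and 0.612 in Snail cells (5.09), against ratios of 0.69 and 0.67 for the ligands IL1A and IL1B. PTGS2, the inducible cyclooxygenase, stood at 1.23 FPKM in Ovol2 cells and 13.2 in Snail cells (-2.67).

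Proliferation genes were lower in Ovol2 cells or did not reach 2-fold. Of 30 mitotic genes, 20 were lower and none higher, with a median of -1.26 (-1.39 with length removed, -0.53 after upper-quartile scaling, with 12 of the 30 lower). CENPF, a kinetochore protein, stood at 1.04 FPKM in Ovol2 cells, 22.2 in Snail cells and 15.5 in EV cells (-3.51). TOP2A, which untangles sister chromosomes, stood at 6.46 FPKM in Ovol2 cells, 54.7 in Snail cells and 40.7 in EV cells (-2.90). MKI67, the proliferation marker Ki-67, stood at 0.993 FPKM in Ovol2 cells, 5.71 in Snail cells and 6.56 in EV cells (-1.75). Other mitotic genes lay closer together, as for CDC20 at 17.5 FPKM in Ovol2 cells and 23.9 in Snail cells (-0.43) and BIRC5 at 13.2 and 19.3 (-0.51). Genes of DNA replication gave 11 of 30 lower and none higher, a share near the 32.4% of all kept genes, with a median of -0.82 (-0.76 with length removed). After upper-quartile scaling that median was -0.06, with 2 of the 30 higher and none lower. Inhibitors of the cycle and p53 targets gave 4 of 22 higher and 6 lower (median -0.07, -0.36 with length removed), and 7 higher and 4 lower after upper-quartile scaling. CDKN1A, the inhibitor p21, stood at 190 FPKM in Ovol2 cells, 74.7 in Snail cells and 77.1 in EV cells (1.33). GDF15, a stress cytokine, stood at 71.0 FPKM in Ovol2 cells, 1.54 in Snail cells and 3.20 in EV cells (4.82). In bulk RNA, fewer cells with a transcript and less transcript per cell cannot be told apart.

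The counts of housekeeping and stress pathways depended on the scaling. Of 23 kept genes of cholesterol synthesis 3 were higher and 2 lower (median 0.02, -0.17 with length removed), but 11 were higher and 1 lower after upper-quartile scaling (median 0.86). Of 19 of the unfolded protein and amino acid response 6 were higher and 2 lower (median 0.12), against 2 higher and 2 lower with length removed (median -0.16) and 9 higher and none lower after upper-quartile scaling (median 0.87). Glycolysis and hypoxia genes gave 1 of 23 higher and 5 lower (median -0.19, -0.46 with length removed), and 4 higher and 2 lower after upper-quartile scaling. The 1 higher was SLC2A1, the glucose carrier GLUT1, at 163 FPKM in Ovol2 cells, 11.7 in Snail cells and 32.9 in EV cells (3.69), while ENO1, enolase, was lower at 216, 770 and 708 (-1.83). Interferon-stimulated genes gave 2 of 23 higher and 9 lower (median -0.82, -1.01 with length removed). OAS1, a sensor of double-stranded RNA, stood at 21.2 FPKM in Ovol2 cells and 1.26 in Snail cells (3.30), and IFITM2, a membrane antiviral protein and close copy of IFITM3, at 1.92 and 29.1 (-3.36). Cytosolic ribosomal proteins, whose transcripts are short, gave 2 of 32 higher and none lower, and 19 higher after upper-quartile scaling but none higher and 4 lower with length removed. Their median changed sign between 0.27 as measured, 1.12 after upper-quartile scaling and -0.49 with length removed.

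Few markers of cell types other than epithelium were kept. Of 14 immune markers 2 were kept, CD14 at 2.49 FPKM in Ovol2 cells and 0.828 in Snail cells and CD68 at 5.09 and 2.24, while PTPRC and CD3E stayed under 0.02 FPKM. The summed level of the immune list was 8.88 FPKM in Ovol2 cells, 3.43 in Snail cells, 22.0 in Zeb1 cells and 3.42 in EV cells. Of 10 endothelial markers 1 was kept, VWF, at 1.29 FPKM in Ovol2 cells and 0.0152 in Snail cells, with PECAM1 under 0.1 FPKM, and the list summed to 1.72 FPKM in Ovol2 cells and 0.395 in Snail cells. Of 12 neural and muscle markers 1 was kept, MAP2, at 1.64 FPKM in Ovol2 cells, 10.5 in Snail cells and 1.66 in EV cells. The Snail value of MAP2 was above 8.01 FPKM, the median of the genes at 1 FPKM or more in that library, and the rest of that list stayed under 0.3 FPKM in both libraries. The basal markers that define MCF10A were present in both libraries, though KRT5, KRT14, EGFR and CDH3 were lower in Ovol2 cells.

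**Figure D5:**
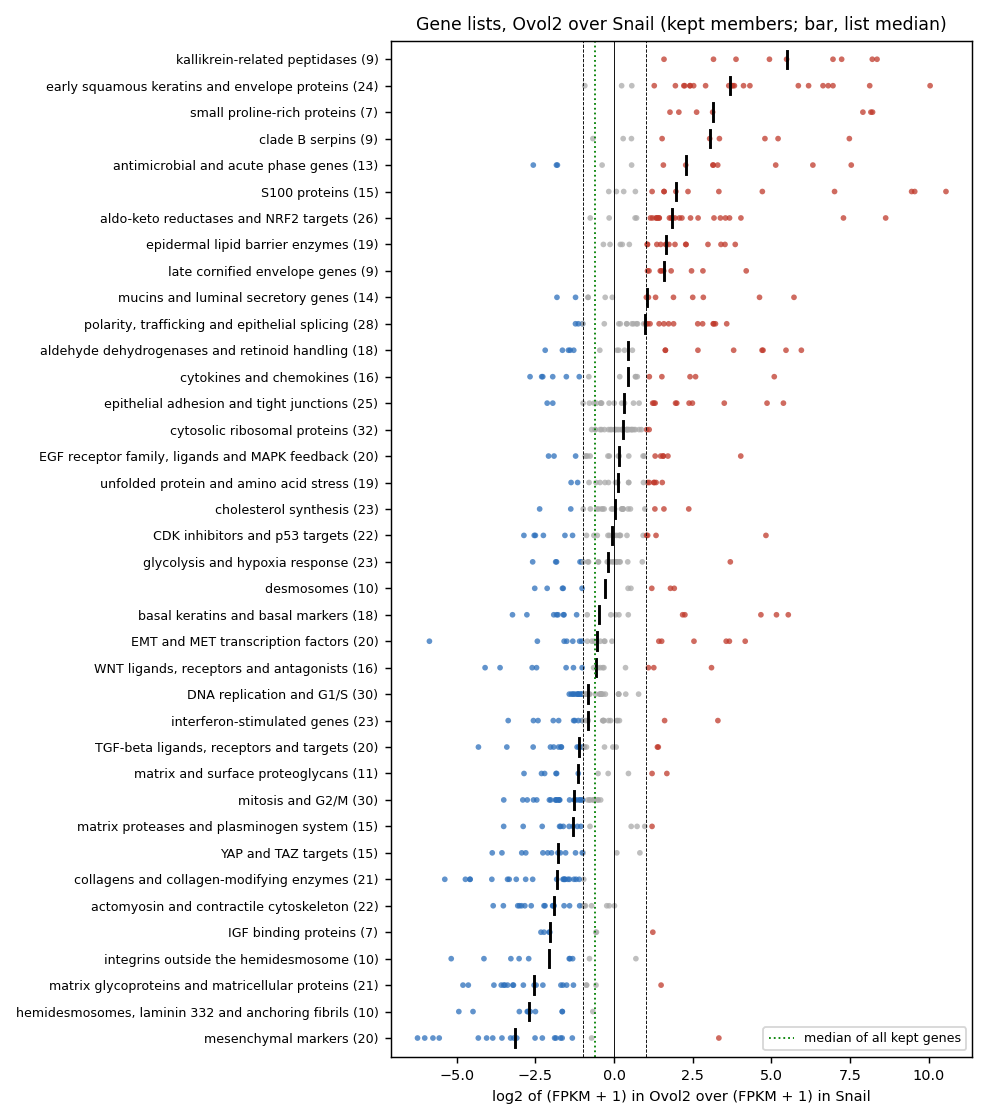
Log2 ratio of Ovol2 over Snail for each kept member (points; right of the upper dashed line higher, left of the lower dashed line lower) of the gene lists with 5 or more kept members, ordered by median (bar); the dotted line is the median of all kept genes, -0.62, and the number in brackets is the members kept. Kallikreins and squamous genes lie at the top, and mesenchymal markers, hemidesmosomes and matrix genes at the bottom, with DNA replication genes close to the dotted line.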

How the data were processed

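RNA of sorted MCF10A cells was sequenced with TruSeq libraries per the labels' protocols, 1 library per group. TopHat, Cufflinks and Cuffdiff on hg19 are named in the submitters' processing notes. Neither their versions nor the strand setting are given in the sources used here. Overlapping and antisense genes therefore cannot be told apart. The values in the authors' deposited tables were taken as FPKM, from the values, since no header names the unit. The tables hold 25360 rows, and 43 rows that repeat a symbol were summed. The deposited p-values were not used, since there is 1 library per group. Ratios were computed with Python 3.11.15 and pandas 2.3.3 with a pseudocount of 1 FPKM. Because whole fragments leave steps between low values, depth was estimated from those steps. Transcript lengths came from GENCODE 29. Named genes are the delivered factors, CDH1, CDH2, VIM, FN1, EPCAM, ESRP1 and the 5 markers. They include the 15 highest and 15 lowest ratios at 5 FPKM in either library, and the 10 each way at 20 FPKM in both. Small RNA genes were left out of these rankings. The rule also takes up to 5 genes past 2-fold each way from each list, with its first 2. A gene that this rule also names is not reported here. Other genes named were chosen after their values were seen. The members, the 42 lists and the tests were chosen with earlier results of these data known. Of these lists, the 15 mitochondrially encoded symbols were not analysed here. Steps were tested on simulated data.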

Additional observations from a re-analysis of the deposited data

How the results depend on the processing

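Alternatives were a pseudocount of 0.1 or 5 FPKM, a filter of 5 FPKM or none, centring, rescaling without RMRP and RPPH1, upper-quartile scaling, a correction for transcript length, leaving out small RNAs, the highest row of a symbol and a 4-fold rule. Length correction with centring was added after seeing the data. The genes higher in Ovol2 cells numbered 598 with a pseudocount of 5 FPKM, 2439 with upper-quartile scaling, 623 with length removed and 314 at 4-fold, against 1046. The genes lower numbered 1520 with a pseudocount of 5 FPKM, 1365 with upper-quartile scaling, 712 at 4-fold and 1654 with length correction and centring, against 3833. The share of genes past 2-fold that were higher was 39.4% with length correction and centring and 64.1% with upper-quartile scaling, against 21.4%. The median ratio was -0.78 and -0.32 with pseudocounts of 0.1 and 5 FPKM, -0.053 with no filter, -0.75 with rescaling, 0.088 with upper-quartile scaling and -0.19 with length correction and centring, against -0.62. Of the lists, 24 had a median past 2-fold, against 14 with a pseudocount of 5 FPKM, 14 with no filter and 11 at 4-fold. Upper-quartile scaling gave 23, with 6 of the 24 falling under 2-fold and 5 others rising past it. Those 6 were non-hemidesmosome integrins (median -0.64), YAP and TAZ targets (-0.98), TGF-beta genes (-0.43), proteoglycans (-0.38), matrix proteases (-0.79) and mitosis (-0.53). None of the 24 changed the sign of its median under any of these alternatives. For small proline-rich, late envelope and kallikrein genes, all kept through Ovol2 cells alone, the filter favours that sign. The endothelial list and the neural and muscle list, also among the 24, held 1 kept gene each. Among members present in both libraries, the medians of the antimicrobial and luminal secretory lists were negative, at -1.09 and -0.83, against 2.28 and 1.06 for all kept members. Of the 300 genes of the naming rule, 267 were past 2-fold and 1 of them reversed, DSG3, from -1.02 to 0.0021 with length correction and centring. Apart from what the construction of each alternative fixes, the cause was not tested. No paired analysis was possible because there is 1 library per group and the labels carry no replicate numbers, and for the same reason no replicate could be left out. Depth limits values near 0, such as those of the SPRR and LCE genes in Snail cells, to a handful of fragments.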

Other observations

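Further gene families were chosen after results of these data were known. Some of their genes, such as HMOX1 among the iron genes, are also in the lists above. All 3 kept metallothioneins, which bind zinc and copper, were lower in Ovol2 cells. MT2A stood at 119 FPKM in Ovol2 cells, 1454 in Snail cells and 1419 in EV cells (log2 ratio -3.60). MT1E stood at 78.5 FPKM in Ovol2 cells and 803 in Snail cells (-3.34), and MT1X at 70.4 and 331 (-2.22), though reads can be shared between these close copies. Of 9 kept iron genes 3 were higher and 3 lower, and 2 were higher and 2 lower with length removed. The ferritin chains that store iron were among the higher, with FTL at 2965 FPKM in Ovol2 cells and 546 in Snail cells (2.44) and FTH1, just past 2-fold, at 1599 and 795 (1.01). TFRC, the receptor that takes iron up, was lower, at 50.0 FPKM in Ovol2 cells and 154 in Snail cells (-1.60).

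Among 11 kept annexins, membrane-binding calcium proteins, 3 were higher and 1 lower. With length removed 1 was higher and 4 lower, against 623 higher and 3411 lower of all 11239 genes with a length. ANXA5 had the lowest ratio of them, at 14.3 FPKM in Ovol2 cells and 170 in Snail cells (-3.49). Of 16 kept semaphorins and plexins, a list of long transcripts, 8 were lower and 1 higher, and 5 were lower and none higher with length removed, where the median was -0.42 instead of -1.07. Of 37 kept subunits of respiratory complex I, 17 were higher and none lower, with a median of 0.94, but with length removed 1 was higher and 1 lower and the median was 0.13. Of 345 kept zinc finger genes with the ZNF prefix, 127 were lower and 6 higher, with a median of -0.85, a share lower that was near the 32.4% of all kept genes. With length removed 88 were lower, with a median of -0.69, against 3411 lower of all 11239 genes with a length. ROS1, a receptor tyrosine kinase, was among the 15 lowest ratios, at 1.11 FPKM in Ovol2 cells, 95.1 in Snail cells, 191 in Zeb1 cells and 34.9 in EV cells (-5.51).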
